A study of Mus musculus with 19 samples.

Results

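The potassium channel and HCN channel genes were followed in 18 mRNA-seq libraries of the whole mouse vomeronasal organ. Members were all protein-coding genes whose symbol starts with Kcn or Hcn. There were 98 of them among 35596 genes, 94 Kcn and 4 Hcn genes, of which 81 encode pore-forming subunits and 17 encode auxiliary subunits or, for Kcnrg, a related regulator. All animals were female and were taken at postnatal day 21. In the AP-2εCre line, a Cre knock-in at Tfap2e that acts in immature basal vomeronasal sensory neurons (VSNs), 3 libraries came from AP-2εCre +/-, Smad4 flox/flox animals (cKO), 3 from AP-2εCre heterozygotes and 3 from Smad4 flox/flox animals without Cre. The OMPCre line, a Cre knock-in at Omp that acts in mature apical and basal VSNs, had the same 3 groups of 3 libraries with OMPCre. The sources differ on the animals without Cre. Their labels and a passage of the results of the study call them wild type, whereas the design text and the methods give them floxed Smad4 alleles. They are named Smad4 flox/flox here after the design text, and the files used here do not show which alleles they carried. The organ was sequenced whole, although the labels name VSNs as the cell type, and a lower value in such RNA cannot tell fewer cells of a type from less RNA per cell.

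Potassium channels let K+ leave the cell, which sets the resting potential, ends the action potential and spaces the spikes of a neuron. HCN channels pass a mixed cation current that opens on hyperpolarization and is gated by cyclic nucleotides. In VSNs, currents through BK channels (Kcnma1), the SK channel Kcnn3, the G protein-gated channel Kcnj3, ERG channels and HCN channels are known to shape the response to pheromones, whereas in glands and other epithelia several inward rectifiers and Kcne subunits carry K+ for fluid transport.

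Pore-forming members share a short signature in the selectivity filter, the part of the pore that passes K+, and it is shown because it marks the family. The codons of that signature are shown in capitals, with 6 bases on each side, for 7 members that lead their pore class by TPM over all transcripts and for Hcn4. Over transcripts of 500 bases or more the same genes lead, apart from Kv4, where Kcnd1 leads in place of Kcnd3. They were read from the GENCODE vM21 transcripts.
Kcna6: atgaccACGGTAGGTTATGGGgacatg
Kcnc4: atgacaACGCTTGGCTATGGGgacatg
Kcnd3: atgactACACTGGGATATGGAgacatg
Kcns3: atgaccACAGTGGGCTATGGAgacacc
Kcnh3: ctcaccAGTGTGGGCTTCGGCaacgtg
Kcnma1: atgtctACAGTGGGTTATGGGgacgtt
Kcnk1: ctgagcACCATCGGCCTGGGGgactat
Hcn4: atgctgTGCATTGGGTATGGAcggcag
Over the 15 capital bases, Kcna6 had 12 and Kcnd3, Kcns3 and Kcnma1 had 11 in common with Kcnc4, the gene with the lowest p in the comparisons below. Hcn4 and Kcnk1 had 9 each, and Kcnh3 had the fewest with 8. The first codon of Hcn4 was TGC, where Kcna6, Kcnc4 and Kcnd3 carry a codon of the form ACN.

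Library totals ran from 43385516 to 134042284 estimated counts, so the floor of 3 counts lay at or below 0.0691 counts scaled to the library total (CPM) in every library. Smad4 was at 33.8 to 66.5 CPM in AP-2εCre cKO libraries against 39.6 to 81.0 in the controls of that line. In OMPCre cKO libraries it was at 54.4 to 62.5 CPM, below all 6 controls of that line (64.8 to 83.9). Counts per gene take in exons outside the deleted part, and cells without Cre keep the gene. Neuronal markers were present in each library (Omp at 225 to 549 CPM, Trpc2 at 50.1 to 138), as were gland markers (Lcn3 at 11678 to 32787 CPM) and markers of vessels, muscle, cartilage and blood. One Smad4 flox/flox library of the OMPCre line (replicate 3) stood apart with 94.1 CPM over 5 skeletal muscle markers, against 5.76 to 11.6 in the other 17 libraries. It was also the lowest of the 18 for Kcnj16, Kcnrg, Kcnj1 and Kcnj5. Replicate 3 of the AP-2εCre cKO group had 1460 CPM over 5 endothelial markers, against 172 to 916 in the other 17 libraries.

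Levels were compared between genes as TPM, which corrects for library size and transcript length. In the 12 control libraries the members summed to 439 ± 79.5 TPM (SD, n = 12), and 41 of 98, of which 31 encode pores, reached 1 TPM in each control. All 98 had at least 1 count in some library. Kcnh5, Kcnk15 and Kcnk18 never reached 10 counts in any library.

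By the summed TPM of all transcripts Kcnmb2, a β subunit that speeds the inactivation of BK channels, led with 65.2 ± 15 TPM (SD, n = 12). It was followed by Kcnab2, a cytoplasmic Kv β subunit, with 31.6 ± 10.5 and by Kcnh3, an ELK channel, with 23.6 ± 11. Most of these values came from transcripts under 500 bases, to which few reads give a large TPM. Such transcripts held 76.8% of the Kcnmb2 value, 73.9% of that of Kcnab2 and 72.3% of that of Kcnh3. In Kcnmb2 a transcript of 338 bases had the highest TPM but took only 12.5% of the estimated counts of the gene in the 18 libraries. With transcripts of 500 bases or more alone, a limit chosen after the data were seen, Kcnmb2 stood at 15.1 ± 3.15 TPM and ranked 3, while Kcnab2 stood at 8.26 ± 1.94 and ranked 14, and Kcnh3 at 6.54 ± 2.21 and ranked 16.

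Kcnk1, a leak channel of the tandem-pore (K2P) class of epithelia and brain, then led with 21.8 ± 2.39 TPM and varied little, from 17.8 to 24.8 over the controls. Kcna6, a Kv1 delayed rectifier, was next at 20.3 ± 5.57, and its range of 12.9 to 31.4 overlapped that of Kcnk1. Both genes held nearly the same value with and without the short transcripts. The short transcripts did not decide the number of members expressed, which stayed at 41.

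**Figure D1:**
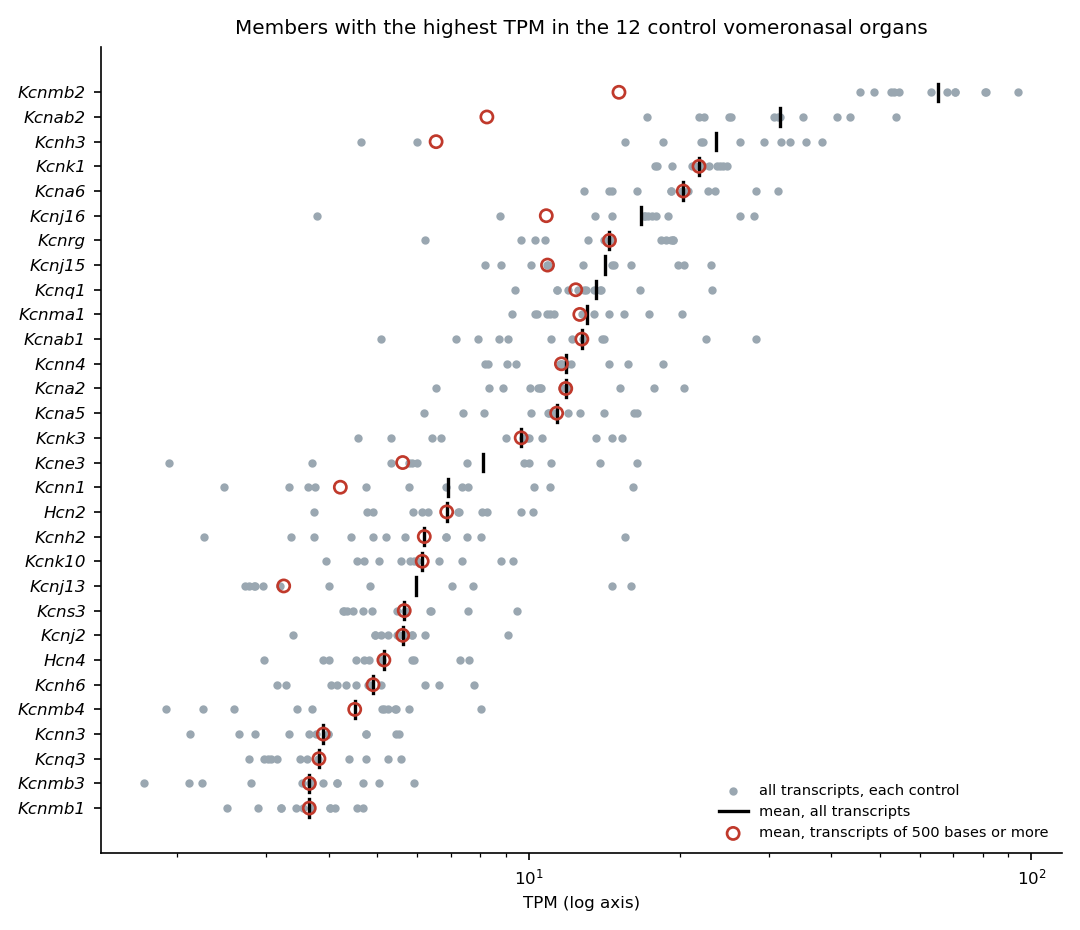
TPM of 30 members with high mean values over the 12 control libraries, on a log axis. Grey points are single controls with all transcripts summed, black bars their mean, and red circles the mean over transcripts of 500 bases or more, which lies far below the bar for Kcnmb2, Kcnab2 and Kcnh3 and on it for Kcnk1 and Kcna6.

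Among the voltage-gated channels, the Kv1 class, which sets spike threshold and repolarizes axons, summed to 46.1 ± 13.0 TPM (SD, n = 12, transcripts of 500 bases or more). Besides Kcna6 it held Kcna2 (11.9 ± 4.01), Kcna5 (11.4 ± 3.21) and Kcna1 (2.20 ± 0.618), and the other 4 members were below 1 TPM in at least 1 control. Kcna2, with a transcript of 11582 bases, took more reads than any other member, 158 ± 30.1 CPM. Kcnc4 (Kv3, which repolarizes fast spikes) stood at 2.39 ± 0.888 TPM and Kcns3, an electrically silent subunit that modifies Kv2 channels, at 5.65 ± 1.58. No Kv4 gene, the class of the transient A-type current, reached 1 TPM in every control. Kcnd3 had 2.69 ± 4.34 TPM over all transcripts, of which 81.6% came from transcripts under 500 bases.

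All members of the EAG, ERG and ELK class but Kcnh1, Kcnh5 and Kcnh7 passed 1 TPM in every control. The ERG genes Kcnh2 and Kcnh6 stood at 6.2 ± 3.42 and 4.90 ± 1.36 TPM, and the third, Kcnh7, at 1.52 ± 0.545. Kcnh1, an EAG channel, stood at 1.44 ± 0.409. In the Kv7 class, Kcnq1, the channel of epithelia and heart, led with 13.6 ± 3.48 TPM. Kcnq3, a neuronal M-current gene, was lower at 3.83 ± 0.949.

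The BK pore gene Kcnma1 had 13.1 ± 3.27 TPM and 104 ± 12.5 CPM, the second largest read share. The 3 other BK β genes, Kcnmb1, Kcnmb3 and Kcnmb4, stood at 3.66 ± 0.654, 3.66 ± 1.26 and 4.51 ± 1.77 TPM. The Na+-activated channel Kcnt1 was low at 0.244 ± 0.119. Kcnn4, the intermediate-conductance Ca2+-activated channel of epithelia and immune cells, had 11.9 ± 3.12 TPM, Kcnn1 6.91 ± 3.96 and Kcnn3 3.90 ± 1.07. For Kcnn3, 83.7% of the counts were assigned to a transcript of 8314 bases annotated as holding an intron.

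The inward rectifiers had 6 of 15 members at 1 TPM or more in every control, led by Kcnj16 (16.7 ± 6.56) and Kcnj15 (14.2 ± 4.83), both known from secretory and absorptive epithelia. Over transcripts of 500 bases or more Kcnj15 (10.9) led Kcnj16 (10.8). Kcnj13, another epithelial channel, had 5.96 ± 4.69, of which 45.4% was from short transcripts. Kcnj3, the GIRK subunit described in VSNs, had only 0.327 ± 0.133 TPM. Among K2P genes, Kcnk3 (9.66 ± 3.55) and Kcnk10 (6.14 ± 1.65) followed Kcnk1. Of the auxiliary genes, Kcnab1 stood at 12.8 ± 6.67 TPM, Kcne3 at 8.11 ± 4.24 and Kcnip3, a KChIP, at 3.21 ± 0.977. Kcnrg, whose product is known to hinder Kv channel assembly, had 14.5 ± 4.55.

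Among the HCN genes, 2 of 4 were at 1 TPM or more in every control. Hcn2 stood at 6.87 ± 1.97 TPM and Hcn4 at 5.15 ± 1.35, and their ranges over the controls (3.75 to 10.2 and 2.98 to 7.62) overlapped. Hcn3 stood at 0.610 ± 0.446, and every Hcn2 and Hcn4 value lay above every Hcn3 value.

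The comparison of AP-2εCre cKO libraries with the 6 controls of their line asked how the channels stood when basal VSNs lose Smad4 early. Of 98 members, 89 passed the filter on low counts. None was called by edgeR's quasi-likelihood test at a Benjamini-Hochberg adjusted p under 0.05, where 0.0378% of all genes tested were. At an unadjusted p under 0.05, 9 of 89 members were higher and 6 lower, against 4.18% and 6.04% of all genes. DESeq2 called 4 of 94 members, Kcnc4, Kcnab2, Kcnj13 and Kcnrg, and 1.53% of all genes. Without cKO replicate 1, 8 of 91 members had an unadjusted p under 0.05, against 9.71% of all genes in that fit. The median log2 difference of the members was 0.15, with 56 higher and 33 lower, where that of all genes was 0.00.

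Kcnc4 had the lowest p. Its level was 13.5, 16.1 and 15.8 CPM in the cKO libraries, against a lowest value of 8.93, a median of 9.61 and a highest value of 10.7 in the 6 controls. All cKO libraries lay above all controls, which were close together. The log2 difference was 0.64 ± 0.10 (SE, adjusted p = 0.115) by edgeR and DESeq2 gave an adjusted p of 6.38e-05. The exact permutation test over the 84 splits gave p = 0.0119 (two-sided), the smallest it can give. All reads of this gene came from its single transcript. The libraries fall into 2 series by the form of their codes (a letter, or the name of the line, before a number), and the log2 difference was 0.70 and 0.49 within the letter-coded and the line-coded series, the latter with 1 cKO library and 2 controls.

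Kcnab2, the Kv β subunit, was at 36.5, 42.4 and 42.6 CPM in cKO, with a lowest value of 25.4, a median of 28.9 and a highest value of 34.5 in the controls. The groups did not overlap. The gene shares 125 exonic bases with Gm16334 on its own strand. The log2 difference was 0.45 ± 0.11 (SE, adjusted p = 0.269), DESeq2 gave 0.0284, and within the series it was 0.59 and 0.17. Including Kcnc1, which was under 1 CPM on average, 4 members lay wholly above the controls and 2 wholly below, where 2.21% and 2.85% of all genes did.

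Counts by class were as follows for AP-2εCre cKO. All 6 Kv1 genes tested, all 7 of the EAG, ERG and ELK class, all 3 Kv4 genes, all 4 HCN genes and 8 of 9 silent subunits had a positive log2 difference, with medians of 0.21, 0.24, 0.39, 0.20 and 0.29. Of the inward rectifiers 5 were higher and 10 lower (median -0.09), of the K2P genes 4 and 5 (-0.07), and of the SK and IK genes 1 and 3 (-0.07). Of the BK and Slo genes 1 was higher and 3 lower (-0.20), of the Kcne genes 2 and 3 (-0.93), of the KChIP genes 2 and 2 (-0.17) and of the BK β genes 2 and 2 (-0.07). Of the Kv3 genes 3 were higher and 1 lower (0.41), of the Kv β genes 2 and 1 (0.30), and of the Kv7 genes 4 and 1. In OMPCre cKO libraries the corresponding medians were 0.09, 0.20, 0.06, 0.02 and 0.00 for the first set of 5 classes and -0.10, -0.05 and 0.01 for the inward rectifiers, K2P genes and SK and IK genes. For the BK and Slo, Kcne, KChIP, BK β, Kv3 and Kv β genes they were 0.20, -0.06, 0.06, 0.15, 0.10 and 0.17. These are counts and medians of members, of which no class was tested as a whole.

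Other members with an unadjusted p under 0.05 and a higher mean were Kcnh1, Kcnk10, Kcns3, Kcna3 and Kcnc1, with adjusted p from 0.374 to 0.437 by edgeR. Kcnh1, an EAG channel, had 15.1, 13.8 and 11.4 CPM against 9.05 to 11.9, so that 1 cKO library lay within the controls, and a log2 difference of 0.36 ± 0.13 (SE, adjusted p = 0.374). The summed level of 8 markers of immature neurons and progenitors was 425 to 490 CPM in these cKO libraries, 292 to 353 in Smad4 flox/flox and 330 to 435 in heterozygous libraries. All 8 had a positive log2 difference, 3 of them (Stmn2 and Mki67 among these) with an unadjusted p under 0.05, and none was at 0. The 5 markers of mature VSNs summed to 1223 to 1431 CPM, against 1160 to 1233 and 854 to 1168 in those control groups. The 3 apical markers summed to 678 to 720 CPM, above 550 to 650 and 570 to 605. The 5 immune markers summed to 197 to 202 CPM against 155 to 177 and 170 to 183, with 4 of 5 higher and 2 at an unadjusted p under 0.05. The 6 mural and smooth muscle markers summed to 1862 to 2352 CPM against 1644 to 2036 and 1354 to 1881, with 5 of 6 higher and 2 at an unadjusted p under 0.05. The part of these markers in the channel values was not tested.

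**Figure D2:**
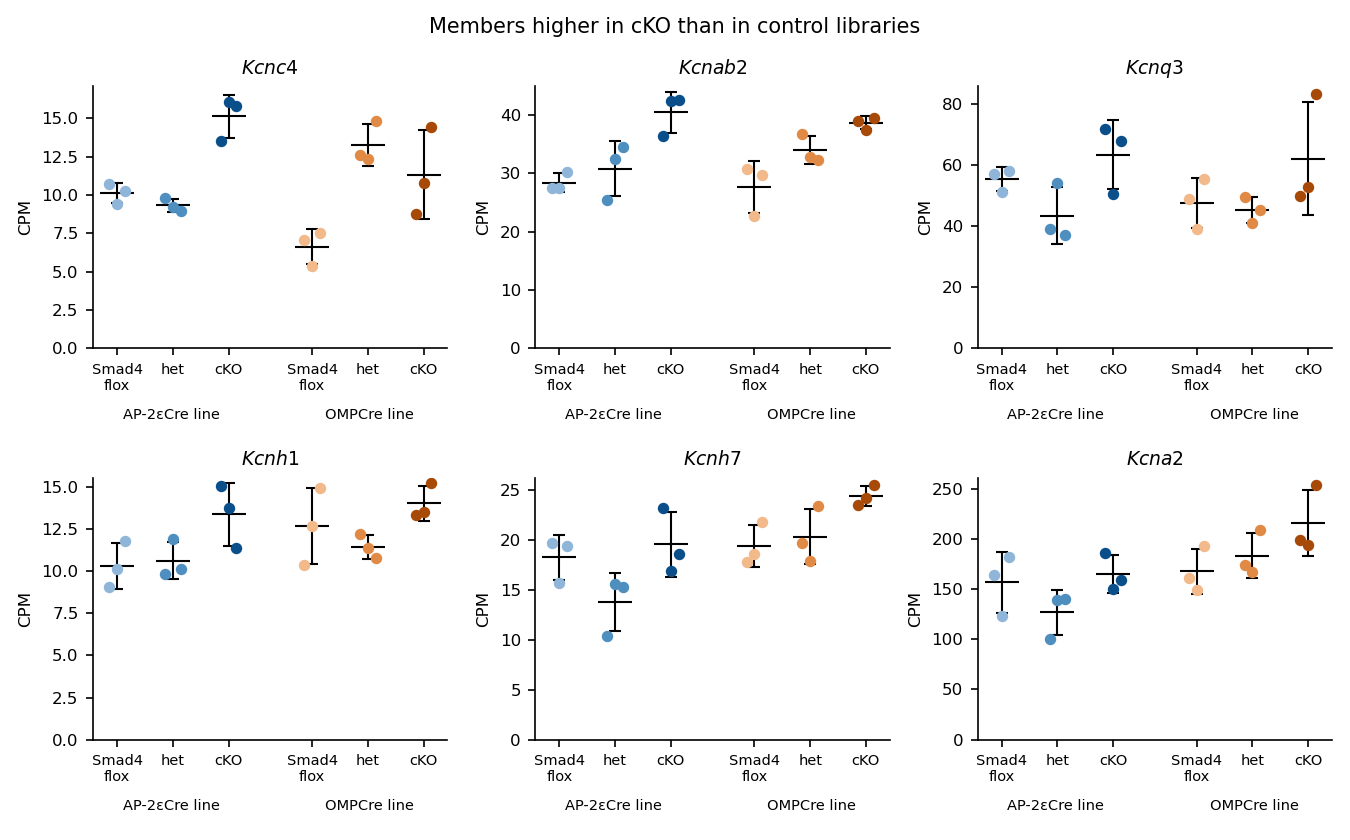
CPM of 6 members in each library, by genotype within the AP-2εCre and OMPCre lines, with the mean (horizontal mark) and SD (bars, n = 3). Kcnc4 is high in the AP-2εCre cKO libraries and also in the OMPCre heterozygotes, Kcnab2 is high in both cKO groups, and Kcnq3, Kcnh1, Kcnh7 and Kcna2 overlap their controls in at least 1 line.

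The lower members were a different set. Kcnj13 stood at 2.23, 2.03 and 2.52 CPM in cKO animals, with a lowest value of 3.55, a median of 3.92 and a highest value of 6.77 in the controls. The groups did not overlap, although the highest control (heterozygote 1) stood well above the other 5. The log2 difference was -0.98 ± 0.24 (SE, adjusted p = 0.269), DESeq2 gave 0.0103, and within the series it was -1.0 and -0.94. The gene shares 623 exonic bases with Gigyf2 on the other strand. The kit keeps strand, but the strand setting of the quantification was not given in the sources used here. Kcnq1 was lower by less, with 39.5, 41.3 and 39.1 CPM against 41.8 to 49.7 and a log2 difference of -0.16 ± 0.07 (SE, adjusted p = 0.478).

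Kcnrg, Kcnj16, Kcne3 and Kcnn4 had the other low values with an unadjusted p under 0.05. Kcnj16 had 18.9, 40.4 and 17.5 CPM in the cKO libraries against 38.4 to 86.6 in the controls. Replicates 1 and 3 lay below every control and replicate 2 within them. The same held for Kcnrg (12.1, 26.1 and 14.5 CPM against 21.1 to 40.7) and for Kcne3 (1.84, 5.83 and 3.67 against 5.45 to 12.3). The log2 differences were -1.04 ± 0.33 (SE, adjusted p = 0.340) for Kcnj16, -0.83 ± 0.26 (SE, adjusted p = 0.335) for Kcnrg and -1.09 ± 0.38 (SE, adjusted p = 0.374) for Kcne3. For Kcnn4 it was -0.69 ± 0.23 (SE, adjusted p = 0.364). Within the letter-coded and the line-coded series the difference was -0.90 and -1.42 for Kcnj16, -0.60 and -1.44 for Kcnrg and -0.68 and -2.30 for Kcne3.

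Markers of secretory and ciliated cells stood low in the same libraries. The 5 gland markers summed to 17234 to 23307 CPM in AP-2εCre cKO libraries, below 32484 to 52127 in Smad4 flox/flox and 32688 to 34755 in heterozygous libraries. All 5 had a negative log2 difference, 3 of them (Aqp5, Lcn3 and Lcn4) with an unadjusted p under 0.05. The 3 ciliated cell markers summed to 241 to 343 CPM against 357 to 474 and 371 to 425, all 3 with a negative difference and Dnah5 and Tekt1 with an unadjusted p under 0.05. Of the 4 sustentacular markers 3 were lower, and their sum was 484 to 851 CPM against 745 to 1170 and 1102 to 2545. No marker of these lists was at 0 in any library. Their part in the values of Kcnj13, Kcnj16, Kcnrg, Kcne3 and Kcnn4 was not tested.

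In the OMPCre line the lowest values of Kcnj16, Kcnrg, Kcne3 and Kcnj13 lay in replicate 3 of each genotype. For Kcnn4 this was so in the controls, and the lowest cKO value was in replicate 2 (21.1, 15.4 and 18.6 CPM). Kcnj16 had 53.7, 63.8 and 12.4 CPM in Smad4 flox/flox, 47.1, 42.0 and 27.4 in heterozygous and 59.7, 28.8 and 18.2 in cKO libraries, with the lowest value of each genotype in replicate 3. Over the 3 genotypes, replicate 3 had 9.10, 14.5 and 12.3 CPM of Kcnrg, where the other 6 libraries had 16.2 to 37.4. It had 1.59, 3.08 and 1.56 CPM of Kcne3 (others 6.02 to 8.40) and 2.09, 2.62 and 2.20 CPM of Kcnj13 (others 3.53 to 6.34). Replicate 3 was the lowest of its genotype for these 4 genes, and it is the library of the line-coded series in each. Replicate 3 was also the lowest of each genotype for the summed gland, ciliated and sustentacular markers, the last with 322, 679 and 487 CPM.

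**Figure D3:**
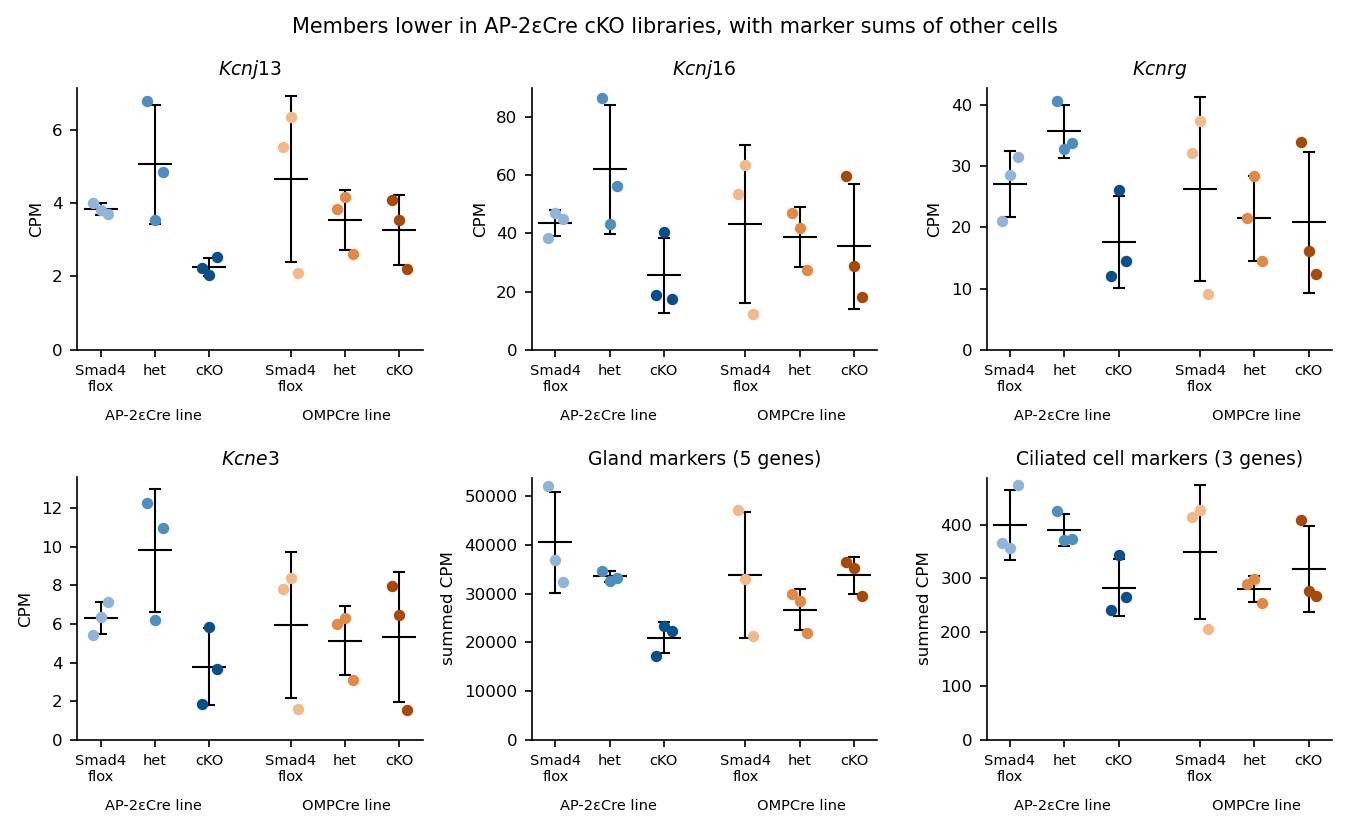
CPM of Kcnj13, Kcnj16, Kcnrg and Kcne3 and the summed CPM of 5 gland and 3 ciliated cell markers in each library, with mean and SD (n = 3). The AP-2εCre cKO group has the lowest mean of its line in all 6 panels, and the 3 genotypes of the OMPCre line overlap in each.

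In the OMPCre line the comparison asked the same of mature VSNs of both kinds. Of 88 members tested, edgeR and DESeq2 called none (0 of 88 and 0 of 95), where edgeR called 0.00% and DESeq2 0.218% of all genes. At an unadjusted p under 0.05, 5 members were higher (Kcnh7, Kcnab2, Kcnq3 and Kcna2 among these) and 1 lower (Kcnj3), against 2.06% and 1.88% of all genes. The median log2 difference of the members was 0.03 and that of all genes 0.00. Groups did not overlap for 3 higher members (Kcnab2, Kcnh7 and Kcnn2) and 1 lower (Kcnj3), where 1.41% and 0.940% of all genes lay wholly above or below.

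Kcnab2 had 39.0, 37.5 and 39.6 CPM in OMPCre cKO libraries, in a narrow range, and a lowest value of 22.6, a median of 31.6 and a highest value of 36.8 in the controls. The lowest cKO library lay just above the highest control. The log2 difference was 0.33 ± 0.13 (SE, adjusted p = 1.00), and within the series 0.32 and 0.35. The 2 kinds of control differed, with 32.3 to 36.8 CPM in heterozygotes and 22.6 to 30.8 in Smad4 flox/flox libraries. Over the alternative fits, single control sets among them, the log2 difference of Kcnab2 ran from 0.19 to 0.48. Kcnq3 had 50.01, 53.0 and 83.5 CPM against 39.0 to 55.3, with a log2 difference of 0.42 ± 0.17 (SE, adjusted p = 1.00) and an overlap. Kcnh7, an ERG channel, had 23.5, 24.1 and 25.5 CPM against 17.8 to 23.4 and a log2 difference of 0.30 ± 0.10 (SE, adjusted p = 1.00). It shares 696 exonic bases with Gca on the other strand. Kcnn2, an SK channel, had 3.87, 3.91 and 4.87 CPM against 1.07 to 3.49 (log2 difference 0.59 ± 0.32, adjusted p = 1.00 by edgeR). Its controls were at 3.29 to 3.49 CPM in heterozygotes and 1.07 to 3.03 in Smad4 flox/flox libraries. Over the alternative fits the log2 difference ran from 0.33 to 0.92 for Kcnn2 and from 0.23 to 0.35 for Kcnh7.

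Kcnj3 was at 0.902, 0.934 and 0.805 CPM in OMPCre cKO libraries and at 1.09 to 1.73 in the controls, a log2 difference of -0.68 ± 0.26 (SE, adjusted p = 1.00). All 3 lay below all 6 controls, at a level near 1 CPM. Over the alternative fits the log2 difference of Kcnj3 ran from -0.78 to -0.38. Its exons share 1621 bases with Gm26794 on the other strand. Without the control that stood apart in muscle markers, 10 of 87 members had an unadjusted p under 0.05 (all genes in that fit 4.69%), and the log2 difference was 0.31 for Kcnab2, 0.32 for Kcnh7 and -0.75 for Kcnj3. The 3 apical markers summed to 626 to 686 CPM in these cKO libraries, 564 to 598 in Smad4 flox/flox and 574 to 621 in heterozygous ones, and the 3 basal markers to 355 to 403, 318 to 372 and 341 to 372. Their part in the values of Kcnab2 and Kcnh7 was not tested. Kcnc4 had 8.72, 10.8 and 14.5 CPM in OMPCre cKO libraries, above the 3 Smad4 flox/flox controls and overlapping the 3 heterozygotes, with a log2 difference of 0.19 ± 0.32 (SE, adjusted p = 1.00).

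The upstream sequence is shown for Kcnj13, Kcnj3 and Kcnh7, as windows of 250 bases that end before the start (GRCm38.p6, RefSeq). They were taken from the members without overlap in a cKO comparison, at a mean of 1 CPM or more. Their RefSeq start lies within 50 bases of the start of the transcript with most reads. Their windows overlap no annotated exon of the same gene, and exons of other genes were not looked at. Kcnj13 lies on the minus strand (chr1:87394730-87394979), Kcnj3 on the plus strand (chr2:55435720-55435969) and Kcnh7 on the minus strand (chr2:63184288-63184537). Capitals mark the Smad half-site CAGAC, searched on both strands together with the GC-rich element GGCGCC, which does not overlap it.
Kcnj13: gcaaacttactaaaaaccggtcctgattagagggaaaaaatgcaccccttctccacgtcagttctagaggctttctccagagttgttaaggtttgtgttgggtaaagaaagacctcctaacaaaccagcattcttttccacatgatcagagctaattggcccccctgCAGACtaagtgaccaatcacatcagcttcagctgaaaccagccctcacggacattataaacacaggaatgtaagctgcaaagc
Kcnj3: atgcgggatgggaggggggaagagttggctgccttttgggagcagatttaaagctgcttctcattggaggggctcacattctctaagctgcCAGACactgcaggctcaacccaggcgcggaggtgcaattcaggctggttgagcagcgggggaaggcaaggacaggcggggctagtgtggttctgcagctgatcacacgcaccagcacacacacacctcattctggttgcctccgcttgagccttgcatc
Kcnh7: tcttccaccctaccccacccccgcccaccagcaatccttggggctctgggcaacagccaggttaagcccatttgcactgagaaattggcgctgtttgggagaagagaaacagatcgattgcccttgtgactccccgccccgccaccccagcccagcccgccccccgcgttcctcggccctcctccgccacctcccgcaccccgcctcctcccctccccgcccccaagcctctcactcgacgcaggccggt
The windows of Kcnj13 and Kcnj3 held 1 half-site each and that of Kcnh7 held none. Of 32851 windows of this length over all genes, 42.2% held the half-site and 9.59% the GC-rich element. Of 96 windows of the 71 members found in the RefSeq table, 47.9% and 15.6% did. A match of so few letters is common and is a description of the window.

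Over both lines together, the mean cKO effect of 92 members tested was called in none by edgeR (all genes 0.0925%) and in 2 by DESeq2, Kcnab2 among these (all genes 0.935%). At an unadjusted p under 0.05, 11 members were higher and 4 lower, against 4.37% and 5.0% of all genes. Kcnab2 had a mean log2 effect of 0.39 ± 0.08 (SE, adjusted p = 0.116). Kcnh1, Kcnq3, Kcnk10, Kcnj12, Kcnh7, Kcna2, Kcnc4 and Hcn4, all of which form pores, were also among the higher members. The lower ones were Kcnj13, Kcnn4, Kcnj11 and Kcne1. The effect of Kcnh1 was 0.29 ± 0.09 (SE, adjusted p = 0.302) and that of Kcnq3 0.39 ± 0.13 (SE, adjusted p = 0.328).

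The test of the difference between the cKO effects called no member with either tool (all genes 0.00% by edgeR and 0.0748% by DESeq2), and 2 of 92 had an unadjusted p under 0.05, against 4.91% of all genes. These were Kcnq1 and Kcnt2. Kcnq1 was lower in AP-2εCre cKO libraries and had 52.5, 38.2 and 48.2 CPM in OMPCre cKO libraries against 32.4 to 46.1. The OMPCre effect minus the AP-2εCre effect was 0.40 ± 0.16 (SE, adjusted p = 1.00). For Kcnc4 this difference was -0.45 ± 0.35 (SE, adjusted p = 1.00), which its standard error does not resolve.

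**Figure D4:**
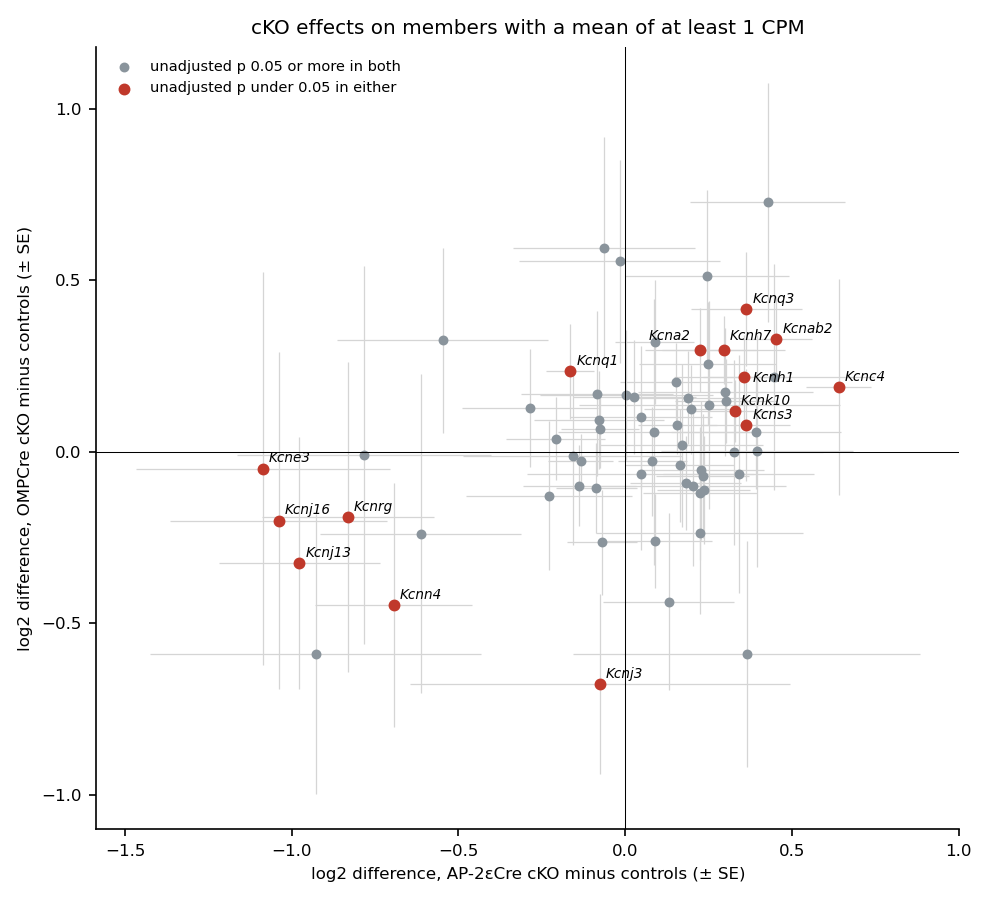
Log2 difference of cKO against controls in the OMPCre line (vertical axis) and the AP-2εCre line (horizontal axis) for 66 of the members with a mean of at least 1 CPM, with bars of 1 SE. The 15 members in red had an unadjusted p under 0.05 in either line. Kcnab2 and Kcnq3, in red, and Kcnj12, in grey, lie above 0.3 in both.

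Heterozygotes were set against Smad4 flox/flox controls to show the level of the members with 1 Cre allele, the only allele that the labels name for these animals. The comparison has 20 splits, so the exact permutation test cannot go below p = 0.1. In the OMPCre line edgeR called none of 88 members (all genes 0.0441%), DESeq2 called Kcnc4 alone of 91 (all genes 0.738%), and 5 of 88 had an unadjusted p under 0.05 (all genes 5.54%). Kcnc4 was at 12.6, 12.3 and 14.8 CPM in heterozygotes and at 7.03, 5.34 and 7.51 in Smad4 flox/flox controls, so that each heterozygote had well above the highest control value. The log2 difference was 1.00 ± 0.17 (SE, adjusted p = 0.316), DESeq2 gave 0.000546, and within the series it was 1.01 and 0.98. In the AP-2εCre line the heterozygotes (9.78, 9.23 and 8.93 CPM) and the Smad4 flox/flox controls (10.7, 9.44 and 10.2) were alike in range, and above the OMPCre-line Smad4 flox/flox controls.

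Kcnmb3, a BK β subunit, had 7.09, 8.76 and 8.03 CPM in OMPCre heterozygotes and 5.30, 3.97 and 5.0 in Smad4 flox/flox controls (log2 difference 0.74 ± 0.18, adjusted p = 0.614 by edgeR). The groups did not overlap. Without the Smad4 flox/flox library that stood apart, 12 of 88 members had an unadjusted p under 0.05 (all genes in that fit 8.22%), and the differences were 1.10 for Kcnc4 and 0.78 for Kcnmb3. In all, 7 members lay wholly above and 3 wholly below, where 6.52% and 5.07% of all genes did. Kcnab2, Kcnh4, Kcnmb4 and Kcnn2 were also higher, with log2 differences of 0.29, 0.42, 0.34 and 0.60. Their unadjusted p by edgeR ran from 0.0696 to 0.168. Without Smad4 flox/flox replicate 2 these differences were 0.17, 0.22, 0.21 and 0.27. With length-scaled counts that of Kcnn2 was -0.078.

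In the AP-2εCre line no member was called by edgeR (0 of 86, all genes 0.0224%) or DESeq2 (0 of 98, all genes 0.760%), and 9 had an unadjusted p under 0.05 (all genes 5.18%). Here 6 members lay wholly above and 9 wholly below, against 4.84% and 5.03% of all genes. Kcnj3 had 2.48, 3.02 and 2.88 CPM in heterozygotes and 1.59, 0.888 and 0.758 in Smad4 flox/flox controls (log2 difference 1.38 ± 0.36, adjusted p = 0.639 by edgeR). In the cKO libraries of that line it ranged more widely, with 3.37, 0.678 and 1.48 CPM. Kcnf1, a silent Kv subunit, had 2.36, 2.42 and 1.5 against 0.600, 1.13 and 0.476 CPM (log2 difference 1.51 ± 0.44, adjusted p = 0.738 by edgeR), and Kcne4 and Kcnrg were the other higher members named by rule.

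The members below included Kcnq1 and the 3 ERG genes. Kcnh6 had 9.75, 14.4 and 15.1 CPM in heterozygotes against 20.1, 19.3 and 20.6 (log2 difference -0.61 ± 0.17, adjusted p = 0.731 by edgeR). Kcnh2 had 10.8, 15.8 and 15.9 against 18.4, 19.4 and 18.5 (log2 difference -0.40 ± 0.16, adjusted p = 0.937 by edgeR), and Kcnh7, the third ERG gene, 10.4, 15.6 and 15.3 against 19.7, 15.7 and 19.4 (log2 difference -0.40 ± 0.18, adjusted p = 0.961 by edgeR). Over the alternative fits the log2 difference ran from -0.72 to -0.41 for Kcnh6, from -0.49 to -0.24 for Kcnh2 and from -0.51 to -0.09 for Kcnh7. Kcnn1 and Kcnmb4 were also below, with log2 differences of -0.36 and -0.59 and an unadjusted p of 0.0410 and 0.0636 by edgeR. With length-scaled counts the difference of Kcnn1 was 0.080. Heterozygote 1 was the lowest of the 6 for the 3 ERG genes, Kcnn1 and Kcnmb4. Without it 4 of 87 members had an unadjusted p under 0.05 (all genes in that fit 3.88%), and the log2 difference was -0.44 for Kcnh6, -0.24 for Kcnh2, -0.24 for Kcnh7, -0.26 for Kcnn1 and -0.36 for Kcnmb4. Without Smad4 flox/flox replicate 1 or 3, 4 of 87 and 5 of 88 members did, against 3.29% and 6.25% of all genes in those fits. The 3 basal VSN markers summed to 212 to 298 CPM in these heterozygotes and 340 to 394 in the Smad4 flox/flox controls. All 3, among them Tfap2e, which carries the Cre, had a negative difference with an unadjusted p under 0.05. The 5 mature VSN markers were all lower as well, 1 with an unadjusted p under 0.05, and summed to 854 CPM in heterozygote 1 and 1166 to 1168 in the other heterozygotes, against 1160 to 1233 in the Smad4 flox/flox controls. Heterozygote 1 also had 2545 CPM over the 4 sustentacular markers, above 745 to 1170 in those controls and 1102 and 1429 in the other heterozygotes. The part of these markers in the values of the ERG genes, Kcnn1 and Kcnmb4 was not tested.

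Between the control sets of the lines, no member was called by either tool (0 of 89 by edgeR and 0 of 93 by DESeq2, where 0.185% and 0.987% of all genes were). An unadjusted p under 0.05 was found for 5 of 89, Kcnc1, Kcnh7, Kcna2 and Kcnk4 among these, against 6.82% of all genes. None of the 89 was free of overlap, where 0.248% of all genes lay wholly above and 0.248% wholly below. Kcnc1, a Kv3 channel, had the largest value, 0.683 to 1.78 CPM in OMPCre-line controls against 0.400 to 0.724 (log2 difference 1.09 ± 0.31, adjusted p = 0.422 by edgeR).

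Kcnma1, Kcnn3, Kcnh2, Kcnt1, Hcn2 and Hcn4, of classes known from vomeronasal or olfactory neurons, had an unadjusted p of 0.05 or more in both cKO comparisons. Kcnma1 had 106, 91.3 and 95.3 CPM in AP-2εCre cKO and 101, 101 and 131 in OMPCre cKO libraries, and 90.3 to 129 over the 12 controls. Kcnn3 had 31.2, 21.8 and 29.4 and 25.4, 27.7 and 36.9 CPM, against 18.2 to 35.7. Kcnh2 had 19.6, 16.8 and 18.8 and 14.1, 20.2 and 19.6, against 10.8 to 23.4. Each of these cKO ranges overlapped that of the controls.

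The ranges of Hcn2 and Hcn4 also overlapped those of the controls. Hcn2 had 21.9, 25.8 and 28.7 CPM in AP-2εCre cKO and 18.7, 21.1 and 21.7 in OMPCre cKO libraries, with 15.2 to 28.9 over the controls. Hcn4 had 44.7, 38.8 and 47.3 and 34.6, 42.6 and 47.5, with 24.1 to 42.9. Its mean effect over both lines was 0.22 ± 0.10 (SE, adjusted p = 0.521). Kcnt1 stayed under 1.1 CPM in every library.

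Proteins that bind these channels and the other voltage-gated pores were read from fixed lists. Of 16 tested binding partners, 8 were higher and 8 lower in AP-2εCre cKO libraries, none called by edgeR and 1 by DESeq2 (all genes 1.53%). At an unadjusted p under 0.05, 2 partners were higher and 3 lower, against 4.18% and 6.04% of all genes. Lrrc26, the γ subunit that lets BK channels open in secretory cells, had a log2 difference of -0.59 ± 0.14 (SE, adjusted p = 0.269), and Amigo1, a Kv2 partner, one of 0.25 ± 0.09. Of 17 tested Na+ and Ca2+ channel pore genes, 15 were higher (all genes 50.6%, members 62.9%), with a median log2 difference of 0.25, and 4 had an unadjusted p under 0.05 (Cacna1a, Cacna1g and Cacna1h among these), against 10.2% of all genes. Neither tool called any. In the same libraries all 8 markers of immature neurons and progenitors (median log2 difference 0.36) and 4 of 5 markers of mature VSNs were higher, and all 5 gland markers lower (median -0.71). The part of these markers in the values of the Na+ and Ca2+ pore genes and Lrrc26 was not tested. In OMPCre cKO libraries 13 of 18 were higher (all genes 48.7%) with a median of 0.12, none with an unadjusted p under 0.05.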

How the data were processed

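The authors quantified stranded polyA+ single-end reads of 75 bases with Salmon 0.14.0 against GRCm38 transcripts and deposited, for each transcript, an estimated count that is not normalized and a TPM. The authors used DESeq2 1.22.2, whose output was not analysed here. Both deposited columns were summed per gene over 116072 transcripts paired by GENCODE vM21; 176 were not paired. The methods name coding sequences as the reference, whereas 35.52% of the transcript lengths are multiples of 3, so that the lengths behind the TPM hold UTRs. Summed counts were rounded. The labels call the libraries biological replicates. CPM were scaled by TMM factors.

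Differences were fitted by quasi-likelihood in edgeR 4.0.16 under R 4.3.3 (TMM, filterByExpr), over all genes of the groups compared, with Benjamini-Hochberg adjustment, and over 18 libraries for the effects of both lines. For a single member, groups were also permuted exactly over all splits (two-sided). Alternatives were DESeq2 1.42.0, other filters, scalings, control sets and covariates, a replicate block and each library left out. The fits were tested on simulated data with the same spread for every gene, no effect of series and larger changes than most reported here. That test therefore does not cover small differences or library effects.

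Members, marker lists and partner lists were chosen with earlier results of these data known. Named were the top 20 by TPM, class leaders, Hcn genes, genes described in VSNs and, per comparison, called members and then those with the lowest p at a mean of 1 CPM or more and no overlap, up to 10. Others, such as Kcnq3, Kcna3 and Kcnk10, were chosen after their values were seen. One library of the AP-2εCre line has a title of a heterozygote and a cKO-like genotype label, and entered no comparison. Some members, markers and sequences are not reported here.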

Additional observations from a re-analysis of the deposited data

Results flagged for a closer look

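In each set of 6 controls, a library was looked for whose distance to the nearest other one takes up most of the range (Dixon's test at the 95% level). Over 34 named members and 68 sets, 7 values did, and chance gives about 1 in 20 sets. Heterozygote 1 of the AP-2εCre line gave 3 of them, with Hcn2 at 15.2 CPM (other controls of the line 24.5 to 28.6), Kcna5 at 22.3 CPM (33.7 to 39.6) and Kcnj16 at 86.6 CPM (38.4 to 56.4). Kcnab1 was at 13.2 CPM in heterozygote 3 of that line (25.4 to 31.2), and Kcnk1 at 65.1 CPM in its Smad4 flox/flox replicate 1 (37.4 to 47.7). In the OMPCre line Kcne4 was at 16.6 CPM in heterozygote 3 (5.39 to 9.23), and Kcnn4 at 49.7 CPM in Smad4 flox/flox replicate 1 (13.7 to 24.4).

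In the library of the AP-2εCre line that belongs to no group, Kcnh3 had 50.7 TPM summed over all transcripts, above the 4.63 to 33.1 of the 6 controls. In the 12 controls 72.3% of the Kcnh3 value came from transcripts under 500 bases, to which few reads give a large TPM, and the grouped libraries reached 39.2 TPM. By the same sums, of the 41 expressed members, 27 lay within the range of these controls, 14 above it and none below.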

How the results depend on the processing

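Of 133 alternative counts of called members over the 7 comparisons, 130 were 0 and 3 were not, all of them from DESeq2, with 4 members for AP-2εCre cKO, 1 for OMPCre heterozygotes and 2 for the mean effect. The counts without each replicate were 0 to 0 in every comparison. The replicate numbers belong to different animals and did not deviate together in every pair, so they were not taken as pairs, and with the replicate block the count was 0 in each of the 7. Members at 1 TPM in every control numbered 41, and 63 reached 1 CPM in every control; without each control in turn there were 41 to 42. Limits chosen after seeing the data, transcripts of 500 bases or more and 1 CPM per kb, left 41 and 42. Of 398 alternative values of 26 named log2 differences, 2 changed sign, both with length-scaled counts, Kcnn1 in AP-2εCre heterozygotes to 0.080 and Kcnn2 in OMPCre heterozygotes to -0.078. The adjusted p of Kcnc4 in AP-2εCre cKO ran from 6.38e-05 to 0.523 and the log2 difference from 0.57 to 0.71. For Kcnab2 there the adjusted p ran from 0.0284 to 0.734, for Kcnj13 from 0.0103 to 0.734, and for Kcnc4 in OMPCre heterozygotes from 0.000546 to 0.895. The log2 difference of Kcnj13 ran from -1.72 to -0.77. Without each library, members at an unadjusted p under 0.05 numbered 8 to 17 for AP-2εCre cKO (8 without cKO replicate 1, 8.79% against 9.71% of all genes, and 17 without Smad4 flox/flox replicate 1, 18.9% against 10.2%), 3 to 10 for OMPCre cKO (3 without cKO replicate 3, 3.37% against 3.59%, and 10 without Smad4 flox/flox replicate 3, 11.5% against 4.69%). For AP-2εCre heterozygotes they numbered 4 to 12 (4 without heterozygote 1 or Smad4 flox/flox replicate 1, 4.6% against 3.88% and 3.29%, and 5 without Smad4 flox/flox replicate 3, 5.68% against 6.25%, and 12 without heterozygote 2, 13.6% against 6.05%) and for OMPCre heterozygotes 5 to 12 (12 without Smad4 flox/flox replicate 3, 13.6% against 8.22%). For the mean effect they numbered 12 to 20 (13% to 21.7%, all genes 6.78% to 11.4%). For the difference between the effects they numbered 1 to 4 (1.09% to 4.4%, all genes 3.88% to 5.86%), 4 without OMPCre-line Smad4 flox/flox replicate 2 or 3 or cKO replicate 3, and 1 without Smad4 flox/flox replicate 3 of the AP-2εCre line or OMPCre heterozygote 1 or 2 or cKO replicate 1. Between the lines' controls they numbered 3 to 9 (3.3% to 10%, all genes 5.44% to 8.3%), 3 without OMPCre-line Smad4 flox/flox replicate 3, 8 without its replicate 1 or heterozygote 2, and 9 without its replicate 2. With library series as a covariate the lines' controls differed at 15 members in place of 5 (16.9% against 11.5% of all genes). OMPCre cKO had 10 in place of 6 (11.4% against 5.67%) and the mean effect 18 in place of 15 (19.6% against 11.8%). AP-2εCre cKO stayed at 15 (16.9% against 11.5%). AP-2εCre heterozygotes had 8 (9.3% against 5.6%), OMPCre heterozygotes 7 (7.95% against 8.71%) and the difference between the effects 5 (5.43% against 6.45%). The cause of these shifts was not tested. At 3 libraries a group, members near 1 CPM have wide errors.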
